A study of Mus musculus with 8 samples.

Results

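The comparison was of group 2 innate lymphoid cells (ILC2s) labelled IL-33 with those labelled PBS in a droplet single-cell RNA library from mouse lung. Membership was taken from the authors' cell table, in which antibody hashtags 1 and 2 carry the treatment PBS and hashtags 3, 4 and 5 the treatment IL-33. This gave 5152 of the 9076 cells in the table, 1059 with PBS (311 and 748 cells) and 4093 with IL-33 (1485, 1092 and 1516 cells). The 3 hashtags that also received dopamine, 3924 cells, were left out of the comparison. All cells came from male wild type C57BL/6 mice. The mice were dosed through the nose on 3 consecutive days, the lung ILC2s were sorted by flow cytometry, tagged with hashtag antibodies and run as a single pool. The labels describe PBS as the vehicle that accompanies IL-33, and name no mice without IL-33. That the PBS hashtags lacked IL-33 follows only from the separate IL-33 class in the cell table and was not tested. No label states that a hashtag stands for 1 mouse, so p-values measure the spread between hashtags, which may be technical.

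ILC2s are tissue-resident lymphocytes without rearranged antigen receptors. Damaged epithelium releases the alarmin IL-33, which binds the receptor chain ST2, the product of Il1rl1, and signals through MYD88 to NF-kB and MAP kinases. Activated lung ILC2s are known for the type 2 cytokines IL-5 and IL-13, for GM-CSF (Csf2) and for the epithelial repair factor amphiregulin (Areg). They need GATA3 and RORα to develop and the costimulator ICOS to expand.

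For each hashtag the unique molecular identifiers (UMIs, single captured transcripts) of its cells were summed, giving 1397576 and 3358246 UMIs with PBS and 9268932, 5828078 and 8601554 with IL-33. Levels are given as these sums scaled to a total of 1000000 UMIs (CPM), in the order of hashtags 1 and 2 for PBS and 3, 4 and 5 for IL-33. Differences are log2 fold changes of IL-33 over PBS with their standard errors (SE) from edgeR's quasi-likelihood test, and a gene passed at a Benjamini-Hochberg adjusted p under 0.05 over all genes tested. The ILC2 marker list summed to 8516 to 9667 CPM, led by Rora, and had a UMI in every cell. Its member Ptgdr2 was not in the table. PBS hashtag 1, with the fewest cells, stood apart from the rest on the first principal component, which held 54.4% of the variance (-44.3, against 4.7 for PBS hashtag 2 and 11.6 to 15.2 with IL-33). The median IL-33 cell was deeper, at 5692, 4872 and 4859.5 UMIs against 4330 and 4317.5 with PBS. These values did not overlap, but 2 hashtags against 3 allow no two-sided exact permutation p under 0.2. Mitochondrial transcripts took a median of 4.06% and 4.15% of a cell's UMIs with PBS and 4.03%, 4.004% and 4.06% with IL-33.

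Of 10506 genes tested, 74 passed, which is 0.704%: 37 were higher and 37 lower with IL-33. The size of the change was modest, with a median absolute log2 fold change of 0.61 over the 74 and 12 of them beyond 1. Transcripts of secreted factors (Csf2, Areg), of some galectin and S100 proteins and of a few cell-cycle genes rose. Those of the costimulator Icos, of immediate early transcription factors (Junb, Fosb, Jund, Atf3) and of Lmo4, Klf4, Klf5, Hes1 and Cebpb fell. The type 2 cytokine genes Il5 and Il13 and the lineage genes Gata3 and Il1rl1 did not pass. At an unadjusted p under 0.05 stood 1411 genes (13.4%), 6.56% higher and 6.87% lower. Without overlap between the groups' hashtags stood 20.9% of all tested genes as higher and 13.6% as lower, so separate groups alone are common in these data. The number of calls rested on PBS hashtag 1: without it 5 genes passed, of which 4 were among the 74 (Csf2, Gm17745, Gm43305 and Gm47283). It was 40 without IL-33 hashtag 3, 124 without hashtag 4 and 89 without hashtag 5, of which 36, 68 and 63 were among the 74. Which genes passed rested on PBS hashtag 2 as well, since most of the 74 did not pass without it. Leaving out either PBS hashtag left 1 PBS hashtag. Without PBS hashtag 2 the median fold change was 0.80 over the 37 higher and -0.67 over the 37 lower genes. Without PBS hashtag 1 these medians were 0.66 and -0.53. When the dopamine hashtags shared the fit, edgeR passed 0 genes (1264 at an unadjusted p under 0.05, lowest adjusted p = 0.154), while DESeq2 on the same 8 hashtags passed 45 and on the 5 hashtags 119. All 74 genes kept their sign in every alternative in which they were tested. Each of the 74 was without overlap between the groups' hashtags, so leaving out a hashtag could hardly turn a sign.

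**Figure D1:**
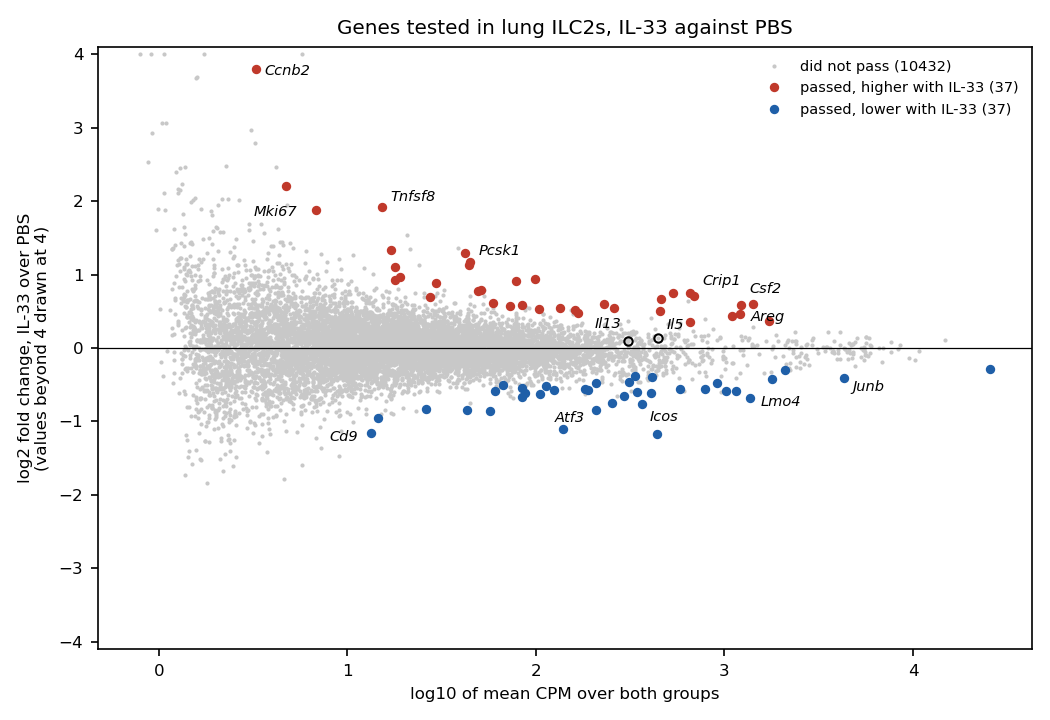
Each dot is 1 of the 10506 genes tested, by its mean level over both groups (log10 CPM, horizontal) and its log2 fold change of IL-33 over PBS (vertical). Red and blue dots are the 37 higher and 37 lower genes that passed, and the open circles mark Il5 and Il13, which lie near 0.

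Csf2, which encodes the myeloid growth factor GM-CSF, and Areg, the repair factor gene, were the 2 abundant cytokine transcripts that rose. The bases that precede the RefSeq start sites of these genes (build GRCm38.p6) are shown because both genes rose and both passed within the same pair of clusters, described later. In lower case, 5′ to 3′ along the gene's strand, with capitals for the only match found:
Csf2, chr11:54249900-54250149, minus strand: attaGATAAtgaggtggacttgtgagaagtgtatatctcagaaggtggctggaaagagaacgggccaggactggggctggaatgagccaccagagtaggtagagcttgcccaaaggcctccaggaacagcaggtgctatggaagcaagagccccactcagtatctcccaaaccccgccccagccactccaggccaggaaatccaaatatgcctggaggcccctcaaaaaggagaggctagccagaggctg
Areg, chr5:91139349-91139598, plus strand: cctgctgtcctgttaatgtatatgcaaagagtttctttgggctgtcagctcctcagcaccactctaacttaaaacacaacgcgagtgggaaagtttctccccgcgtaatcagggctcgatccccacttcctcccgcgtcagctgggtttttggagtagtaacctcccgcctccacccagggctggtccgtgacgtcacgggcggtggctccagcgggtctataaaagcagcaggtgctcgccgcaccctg
Both strands of the window from 250 bases before to 50 after the start were searched for GATAA (GATA factors), TGANTCA (AP-1) and the NF-kB consensus. The Csf2 window held 1 GATAA, at position -246 from the start site, and the Areg window none of the 3. Over the 32851 promoter windows in the table, 25.4% held GATAA, 7.81% TGANTCA and 0.411% the NF-kB consensus. The RefSeq start of Csf2 lies 232 bases upstream of the start in GENCODE M21, so this window does not hold the bases next to the latter.

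Csf2 stood at 1083 and 860 CPM with PBS and at 1612, 1336 and 1516 CPM with IL-33. Every IL-33 hashtag exceeded both PBS hashtags, and the fold change was 0.58 ± 0.10 (adjusted p = 0.0127). Areg stood at 1056 and 954 CPM with PBS and at 1278, 1381 and 1590 CPM with IL-33, again without overlap (0.46 ± 0.09, adjusted p = 0.0235). Tnfsf8, the gene of CD30 ligand, rose from 7.87 and 5.36 CPM to 24.8, 27.8 and 19.4 CPM (1.92 ± 0.27, adjusted p = 0.00621). When each cluster was given the same weight in every hashtag, Tnfsf8 differed by 0.19 (adjusted p = 0.839). Without PBS hashtag 1, Csf2 still passed at 0.76 (adjusted p = 0.0289), but Areg (0.54, adjusted p = 0.106) and Tnfsf8 (2.12, adjusted p = 0.0529) did not. Without PBS hashtag 2, none of the 3 passed (adjusted p = 0.108 for Csf2, 0.186 for Areg and 0.178 for Tnfsf8). In cells between the 10th and 90th percentile of UMIs, Csf2 stood at 0.32 and Areg at 0.33, and neither passed.

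The type 2 cytokine genes proper showed no such separation. Il5, whose product sustains eosinophils, stood at 437 and 400 CPM with PBS and at 356, 560 and 501 CPM with IL-33. The IL-33 hashtags lay on both sides of the PBS hashtags, and the fold change was 0.14 (95% interval -0.16 to 0.44, adjusted p = 0.731). Il13, which drives mucus and smooth muscle responses, stood at 324 and 266 CPM against 274, 316 and 372 CPM (0.10, interval -0.16 to 0.36, adjusted p = 0.792). For Il4 the values were 35.8 and 46.2 CPM against 36.3, 47.0 and 56.9 CPM (0.10, interval -0.31 to 0.51). The intervals of Il5 and Il13 reach at most 0.44 on the log2 scale. Il9 had UMIs in 2 of the IL-33 hashtags at 0.539 and 0.116 CPM and none with PBS, too few to test. Il6 stood at 7.87 and 6.55 CPM with PBS and at 14.8, 12.4 and 11.7 CPM with IL-33 and did not pass (0.87 ± 0.25, adjusted p = 0.134).

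After each cell was thinned to 2000 UMIs, which left out 1 cell in each of hashtags 2, 3 and 5, an Il5 transcript was seen in 19.3% and 20.6% of PBS cells and in 20.8%, 21.9% and 24.2% of IL-33 cells. The unthinned shares were 33.4% and 28.9% against 39.9%, 35.1% and 39.5%. Il5 and Il13 were seen together in 6.43% and 5.62% of thinned PBS cells and in 6.74%, 7.42% and 8.38% of thinned IL-33 cells. For Csf2 the thinned shares were 49.5% and 41.2% against 54.1%, 51.9% and 51.2% (unthinned 66.6% and 55.1% against 69.9%, 67.9% and 66.4%). Each of these differences had an exact permutation p of 0.2 at best, the smallest that the design allows. The shares for Il5 lie close to one another and the summed levels overlap, so no order is read from them. As a comparison with transcripts of other cell types, Lyz2, a myeloid transcript, was seen in 0% to 0.322% of thinned cells, but Scgb1a1, a club cell transcript, in 16.4% and 16.3% with PBS and 12.9%, 15.4% and 15.4% with IL-33. The source of these transcripts was not tested.

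Over the list of type 2 and other secreted factors, 3 of the 33 tested members passed, all higher (background 0.352% higher over all genes tested), with a median fold change of 0.10 against -0.0013 over all genes. DESeq2 passed 3 higher (Areg, Csf2 and Ltb) and 1 lower (Tnfsf11). Of the members that did not pass, Ltb, the lymphotoxin beta gene, came closest, at 693 and 653 CPM against 997, 806 and 924 CPM (0.40 ± 0.09, adjusted p = 0.0532). Tnfsf11, the gene of RANK ligand, stood at 318 and 260 CPM with PBS and at 212, 181 and 235 CPM with IL-33 (-0.48 ± 0.11, adjusted p = 0.0677). The neuropeptide gene Calca overlapped, at 1267 and 891 CPM against 828, 1232 and 832 CPM.

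**Figure D2:**
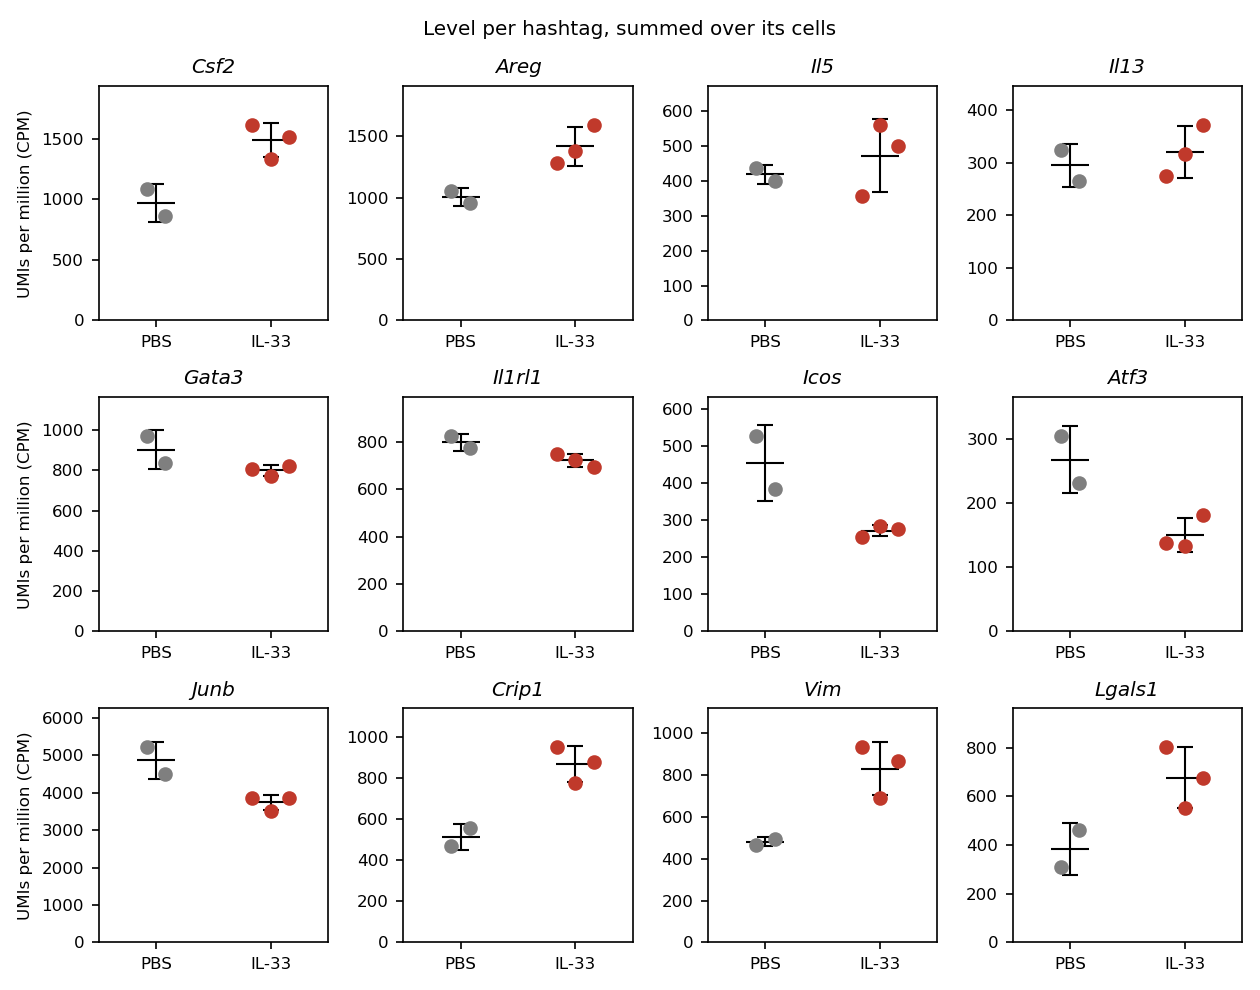
Level in CPM (vertical, from 0) of 12 genes in each hashtag, grey for the 2 PBS and red for the 3 IL-33 hashtags, with the mean and SD of each group in black. Csf2, Areg, Crip1, Vim and Lgals1 are higher and Icos, Atf3 and Junb lower in every IL-33 hashtag, and the groups overlap for Il5 and Il13. Gata3 and Il1rl1, which did not pass, are also lower in every IL-33 hashtag.

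Receptors and lineage regulators showed small differences, and most did not pass. Icos, the gene of the costimulatory receptor, was the clear exception: it fell from 527 and 383 CPM to 255, 285 and 276 CPM (-0.76 ± 0.11, adjusted p = 0.00684). Its thinned share of cells was 42.8% and 39.2% with PBS and 30.3%, 33.8% and 30.9% with IL-33 (unthinned 60.1% and 55.9% against 52.7%, 51.9% and 49.9%). Icos, Crip1 and Prr7 passed in every alternative but 3: both edgeR fits on 8 hashtags and the fit without PBS hashtag 1, in which Icos stood at -0.52 (adjusted p = 0.0897). The predicted genes Gm43305 and Gm17745, named here after their values were seen, passed in every alternative but the 2 edgeR fits on 8 hashtags. Among 24 tested genes of co-stimulatory and checkpoint receptors it was the 1 that passed. Pdcd1, the gene of PD-1, overlapped between the groups at 163 and 138 CPM against 179, 173 and 148 CPM.

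Il1rl1, the IL-33 receptor gene, stood at 825 and 774 CPM with PBS and at 749, 725 and 693 CPM with IL-33. It was lower in every IL-33 hashtag, by a margin that did not pass (-0.18, interval -0.33 to -0.03, adjusted p = 0.266). None of the 17 genes of the receptor and its signalling passed by edgeR or DESeq2. Of the 17, 3 stood at an unadjusted p under 0.05 by edgeR, against 13.4% of all genes. Gata3 stood at 970 and 836 CPM against 806, 769 and 822 CPM (-0.21, interval -0.37 to -0.05, adjusted p = 0.234). Rora, which encodes RORα, stood at 2112 and 1777 CPM against 1598, 1556 and 1614 CPM (-0.33 ± 0.07, adjusted p = 0.0514). It passed without PBS hashtag 2 (-0.45, adjusted p = 0.0112) and stood at -0.19 without PBS hashtag 1. Of the 41 lineage transcription factor genes tested, 0 passed by edgeR, and DESeq2 passed Rora alone (adjusted p = 0.0338). At an unadjusted p under 0.05 by edgeR stood 10 of the 41 (4 higher, 6 lower), against 13.4% of all genes. The maturation marker Klrg1 stood at 120 and 110 CPM against 141, 147 and 143 CPM (0.30 ± 0.09, adjusted p = 0.175). Il2ra, the high-affinity IL-2 receptor chain gene, stood at 411 and 326 CPM against 278, 311 and 316 CPM (-0.31 ± 0.10, adjusted p = 0.18), and Il7r overlapped. Arg1, the arginase gene typical of lung ILC2s, overlapped too, at 300 and 237 CPM against 361, 268 and 279 CPM. Odc1, the first enzyme of polyamine synthesis, stood at 863 and 591 CPM with PBS and at 477, 454 and 551 CPM with IL-33 (-0.58 ± 0.13, adjusted p = 0.0518). That value was -0.29 without PBS hashtag 1 and -0.84 without PBS hashtag 2, where Odc1 passed (adjusted p = 0.0061), as it did without IL-33 hashtag 5 (-0.67, adjusted p = 0.0258) and with DESeq2 (adjusted p = 0.00287).

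A lipid mediator receptor gene and a lipid mediator synthesis gene rose, and a surface marker gene fell. Ltb4r1, the high-affinity leukotriene B4 receptor gene, rose from 208 CPM in both PBS hashtags to 313, 293 and 325 CPM (0.54 ± 0.08, adjusted p = 0.00822). Ptgs2, which encodes the inducible cyclooxygenase, rose from 21.5 and 30.7 CPM to 48.7, 62.8 and 74.3 CPM (1.13 ± 0.21, adjusted p = 0.0209), and its change was 0.53 in cells between the 10th and 90th percentile of UMIs. The tetraspanin gene Cd9 fell from 17.9 and 18.8 CPM to 8.42, 7.72 and 9.07 CPM (-1.16 ± 0.19, adjusted p = 0.0127). Ltb4r1, Ptgs2 and Cd9 did not pass without PBS hashtag 1 (fold changes 0.55, 0.98 and -1.18) or without PBS hashtag 2 (0.54, 1.49 and -1.11).

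Immediate early genes code for AP-1, EGR and related factors and are switched on within minutes of a stimulus or of tissue dissociation. Of 35 tested, 5 fell with IL-33 (background 0.352% lower) and 30 did not pass, with a median fold change of -0.28 over the list. Without overlap stood 17 lower and 5 higher, against 13.6% and 20.9% of all genes, and DESeq2 passed 9 lower and 1 higher (Egr3). Junb fell from 5224 and 4507 CPM to 3868, 3514 and 3854 CPM (-0.41 ± 0.07, adjusted p = 0.00855). The stress factor gene Atf3 fell from 305 and 231 CPM to 138, 133 and 182 CPM (-0.84 ± 0.14, adjusted p = 0.0119). Fosb went from 2168 and 1890 CPM to 1477, 1515 and 1688 CPM, Jund from 1186 and 923 CPM to 712, 789 and 819 CPM, and the kinase gene Sik1 from 258 and 227 CPM to 187, 161 and 182 CPM. Each was lower in every IL-33 hashtag, by -0.42 ± 0.07, -0.48 ± 0.09 and -0.48 ± 0.10.

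The list was not uniform. Fos overlapped at 1031 and 1045 CPM against 1023, 843 and 1041 CPM, Egr1 overlapped as well, and Egr3 was higher in every IL-33 hashtag without passing (0.56 ± 0.15, adjusted p = 0.118). Without PBS hashtag 1 none of the 5 passed (-0.30 for Junb and -0.64 for Atf3) and the list's median was -0.179. Without IL-33 hashtag 3, Junb and Atf3 alone of the 5 passed, and without PBS hashtag 2 or IL-33 hashtag 4 all but Sik1 did. None of the 32 NF-kB subunit, inhibitor and target genes passed by edgeR, with a median of -0.15. At an unadjusted p under 0.05 by edgeR stood 15, of which 13 were lower, against 13.4% of all genes (6.87% lower). DESeq2 passed 2, both lower (Nfkb1 and Nfkbid). Nfkbia, the feedback inhibitor gene, stood at 2655 and 2195 CPM against 2137, 2009 and 1918 CPM (-0.30 ± 0.08, adjusted p = 0.0923), and passed without PBS hashtag 2 (-0.43, adjusted p = 0.0213).

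Further genes of transcription factors and their partners fell. Lmo4, a LIM-domain adaptor gene, fell from 1760 and 1572 CPM to 952, 1148 and 1107 CPM (-0.68 ± 0.08, adjusted p = 0.00221). Klf4 fell from 449 and 376 CPM to 265, 241 and 324 CPM (-0.60 ± 0.12, adjusted p = 0.0298), and Klf5 from 107 and 98.3 CPM to 67.2, 63.0 and 66.5 CPM (-0.67 ± 0.10). Hes1, the Notch target gene, went from 481 and 502 CPM to 285, 351 and 351 CPM (-0.62 ± 0.09), and Cebpb from 356 and 353 CPM to 248, 204 and 238 CPM (-0.66 ± 0.09). Of the remaining genes that fell most at a level of at least 50 CPM, Zbtb10 changed by -0.86, Tuba4a by -0.84, Gimap3 by -0.75, Prr7 by -0.63 and Gcnt1 by -0.61. Gimap3 was the 1 of 8 GIMAP family genes that passed, falling from 363 and 268 CPM to 184, 203 and 184 CPM. Without PBS hashtag 1 none of these 10 genes passed. Their fold changes there ran from -0.79 for Tuba4a to -0.47 for Klf4, all still negative, with Lmo4 nearest the threshold (adjusted p = 0.0529). Hes1 (adjusted p = 0.0616) and Tuba4a (adjusted p = 0.217) did not pass without PBS hashtag 2 either, and Tuba4a, Klf4 and Gcnt1 did not without IL-33 hashtag 3.

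Some genes of the cytoskeleton, of galectins and of S100 proteins, which rise in many lymphocytes on activation, rose with IL-33. Of 42 tested, 6 passed, all higher (background 0.352% higher), and 36 did not. Without overlap stood 21 higher and 0 lower, against 20.9% and 13.6% of all genes. The median over the list was 0.20. S100a9, a member with no UMI in either PBS hashtag, lies above that median whatever fold it is given. Crip1, which encodes a small LIM protein, rose from 472 and 560 CPM to 953, 778 and 878 CPM (0.71 ± 0.09, adjusted p = 0.00574). The intermediate filament gene Vim rose from 465 and 495 CPM to 933, 689 and 868 CPM (0.75 ± 0.11, adjusted p = 0.0067). For Lgals1, the galectin-1 gene, the levels were 310 and 461 CPM against 802, 551 and 677 CPM (0.76 ± 0.15, adjusted p = 0.0403). Lgals3, S100a10 and S100a11 rose by 1.34 ± 0.22, 0.43 ± 0.08 and 0.67 ± 0.14.

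These values depended on the cells that were summed. With clusters weighted alike, the list's median was 0.0727, Crip1 stood at 0.32, Vim at 0.46 and Lgals1 at 0.32, and 3 of the 6 passed (Crip1, Lgals3 and Vim). In cells between the 10th and 90th percentile of UMIs the median was 0.081 and Crip1 alone passed. With each hashtag's total thinned to the smallest one, all 6 passed and the median was 0.185. Without PBS hashtag 1 none of the 6 passed, with Crip1 at 0.61 (adjusted p = 0.0897) and Lgals1 at 0.53. Without PBS hashtag 2 the median was 0.361, and S100a10 and Lgals3 did not pass. Without IL-33 hashtag 3, Crip1, Lgals3 and Vim passed. DESeq2 on the 5 hashtags passed Crip1, S100a10 and Vim.

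**Figure D3:**
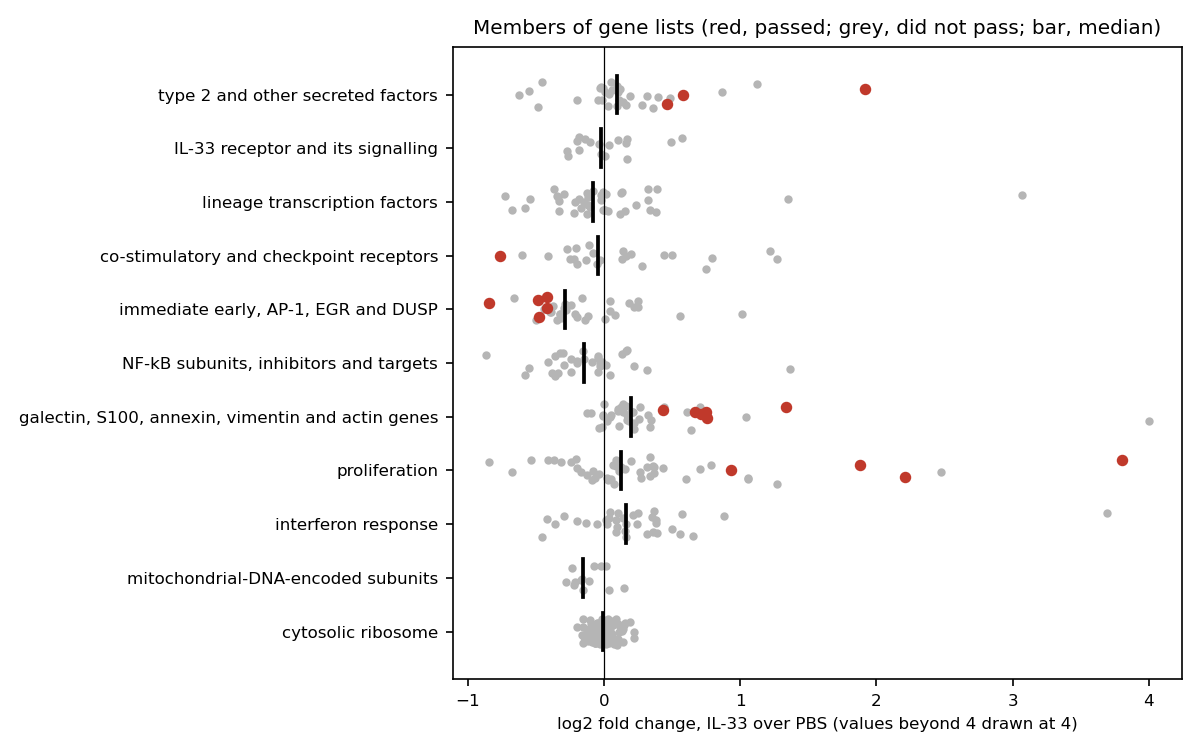
Each dot is a tested member of 1 of 11 gene lists, by its log2 fold change of IL-33 over PBS (horizontal), with red for members that passed and a black bar for the list's median. Red members lie to the right for galectin and S100 genes (median 0.20) and proliferation genes, and to the left for immediate early genes (median -0.28).

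Further genes that rose came from several functions. Pcsk1, which encodes a prohormone convertase, rose from 20.8 and 31.3 CPM to 67.2, 53.7 and 70.5 CPM (1.18 ± 0.18, adjusted p = 0.0072). Zfas1, a non-coding RNA gene that hosts small nucleolar RNAs, rose from 70.1 and 64.3 CPM to 147, 117 and 129 CPM (0.94 ± 0.13, adjusted p = 0.00574). Serpinb6a, a protease inhibitor gene, rose from 45.8 and 59.0 CPM to 114, 90.9 and 106 CPM (0.91 ± 0.14). Cd52, which encodes a small surface glycoprotein of lymphocytes, rose from 1068 and 1146 CPM to 2089, 1368 and 1693 CPM (0.60 ± 0.12, adjusted p = 0.0447). Abhd8 and Mrpl34 lie next to each other on chromosome 8 (chr8:71456705-71463655 and chr8:71464959-71465747, GENCODE M21) on opposite strands, and rose by 0.78 ± 0.12 and 0.89 ± 0.17. No label or header says whether the counting used strand. Myadm, Gmfg and Sh2d2a rose by 0.61, 0.59 and 0.48. Without PBS hashtag 1 none of these 9 genes passed, with Zfas1 nearest (1.00, adjusted p = 0.0527). Pcsk1 and Serpinb6a were the 2 of them that passed without PBS hashtag 2. Cd52, Mrpl34, Myadm, Gmfg and Sh2d2a did not pass without IL-33 hashtag 3, nor Cd52 (adjusted p = 0.054) and Sh2d2a (0.0686) without hashtag 5.

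Cd74, the invariant chain gene of MHC class II, rose from 12.2 and 13.1 CPM to 25.0, 22.0 and 29.3 CPM (0.97 ± 0.20, adjusted p = 0.0447). The dendritic cell marker list, of which it is a member, summed to 22.9 and 36.9 CPM with PBS and to 50.3, 49.2 and 51.9 CPM with IL-33. Its defining members Flt3, Clec9a and Cd209a were not in the table, and H2-Aa overlapped at 1.43 and 2.98 CPM against 2.91, 3.60 and 3.02 CPM. H2-Ab1 overlapped as well, while H2-Eb1 was higher in every IL-33 hashtag without passing (0.92, adjusted p = 0.429). Of 17 tested genes of MHC class II and antigen presentation, Cd74 alone passed. Without overlap stood 7 of the 17 higher and 1 lower, against 20.9% and 13.6% of all genes, with a median of 0.0578. Cd74 did not pass without PBS hashtag 1 (adjusted p = 0.302), PBS hashtag 2 (0.271), IL-33 hashtag 3 (0.075) or hashtag 5 (0.0626).

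Cell-cycle transcripts gave few passing genes. Of 47 tested proliferation genes 4 passed, all higher (background 0.352% higher), and 15 of the 47 had a negative fold change, with a median of 0.13 over the list. DESeq2 gave these 4 no adjusted p and passed 1 other, Tuba1b, as lower. Without overlap stood 17 members higher and 4 lower, against 20.9% and 13.6% of all genes. Mki67, the usual proliferation marker, rose from 4.29 and 2.08 CPM to 12.5, 10.3 and 8.49 CPM (1.88 ± 0.38, adjusted p = 0.0373). The mitotic cyclin gene Ccnb2 had 2 UMIs in all PBS cells and 148 in all IL-33 cells, a ratio per UMI of 14.9 (95% interval 4.04 to 124, counting error only). Cenpf, a kinetochore gene, went from 0.716 and 2.08 CPM to 8.20, 8.41 and 7.44 CPM, and the tubulin regulator gene Stmn1 from 10.7 and 12.8 CPM to 22.8, 25.9 and 22.9 CPM. Not every member moved this way: Tuba1b stood at 90.2 and 93.5 CPM against 45.7, 74.0 and 60.0 CPM. None of the 4 passed without PBS hashtag 1 or without PBS hashtag 2, where the list's medians were 0.229 and 0.0375, and without IL-33 hashtag 3 Ccnb2 and Cenpf did. In cells between the 10th and 90th percentile of UMIs, where Ccnb2 fell under the filter on low counts and was not tested, the other 3 did not pass and the median was 0.010. Nor did those 3 with hashtag totals thinned to the smallest one, where Ccnb2 was again not tested. With clusters weighted alike Ccnb2 alone of the 4 passed.

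Energy metabolism and protein synthesis gave few or no passing genes. None of 37 complex I, 42 complex II to V, 13 mitochondrial DNA-encoded, 24 glucose uptake and glycolysis and 79 cytosolic ribosome genes passed, and 1 of 78 mitochondrial ribosome genes did (Mrpl34). DESeq2 passed 0 in each of the 6 lists. At an unadjusted p under 0.05 by edgeR stood 4, 2, 6, 5, 19 and 16 of their genes in that order, against 13.4% of all genes. Of these, 1 mitochondrial DNA-encoded gene was higher and 5 were lower. For the cytosolic ribosome the numbers were 7 higher and 12 lower, and for the mitochondrial ribosome 14 higher and 2 lower. The median of the mitochondrial DNA-encoded genes was -0.16, with mt-Nd1, a complex I subunit gene, at 2932 and 3041 CPM against 2467, 2617 and 2719 CPM (-0.24 ± 0.06, adjusted p = 0.0631). Mt-Co1, a subunit gene of cytochrome oxidase, was higher in every IL-33 hashtag without passing (0.15 ± 0.05, adjusted p = 0.233). None of 35 interferon response genes passed by edgeR or DESeq2, with 5 at an unadjusted p under 0.05 by edgeR (13.4% of all genes). Of the 35, 16 were higher and 1 lower without overlap (20.9% and 13.6% of all genes), with a median of 0.16. Over the 35 lists described in all, 13 held a passing member, and 46 of the 74 passing genes were in no list.

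Within the clusters that the authors made from the same cells, the same test was fitted in clusters 0 to 4, which had at least 20 cells in each hashtag. Cluster 5 held 8 to 327 cells per hashtag and was not fitted. Cluster 1 held 26 to 413, so the make-up by cluster differed between hashtags. When clusters were weighted alike, those 8 cells stood for the whole share of cluster 5 in their hashtag. In clusters 0 to 4 the test passed 7, 24, 5, 4 and 10 genes, 0.095%, 0.286%, 0.0753%, 0.0698% and 0.138% of those tested. Of the 74 genes 65 were tested in all 5 clusters, and 49 of them had the same sign in each. Csf2 was positive in all 5 clusters and passed in cluster 2 (0.54, adjusted p = 0.0165) and cluster 3 (0.70, adjusted p = 0.0035). Areg passed in the same pair (0.70 and 0.84), and lay at -0.04 in cluster 1. Cxcl2, a neutrophil chemokine gene, passed in both as well, while its level over all cells overlapped at 1409 and 1120 CPM against 1593, 1339 and 1256 CPM.

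Il13 passed in cluster 1 (0.97, adjusted p = 0.0455) and lay at -0.42 in cluster 0. Junb passed in clusters 1 and 4 (-0.55 and -0.52), and Klf4 and Atf3 passed in cluster 4 (-0.91 and -2.39). Icos was negative in all 5, between -0.63 and -0.20, and passed in none of them. Crip1 ranged from -0.01 to 0.43, passing in cluster 1, and Lgals1 from -0.23 to 0.56 within clusters, each below its value over all cells. Of 94 named genes tested in at least 2 clusters, 5 (5.32%) were higher without overlap in 1 cluster and lower without overlap in another, against 15.3% of all 7717 genes tested in at least 2. Whether fold changes differ between clusters was not tested.

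**Figure D4:**
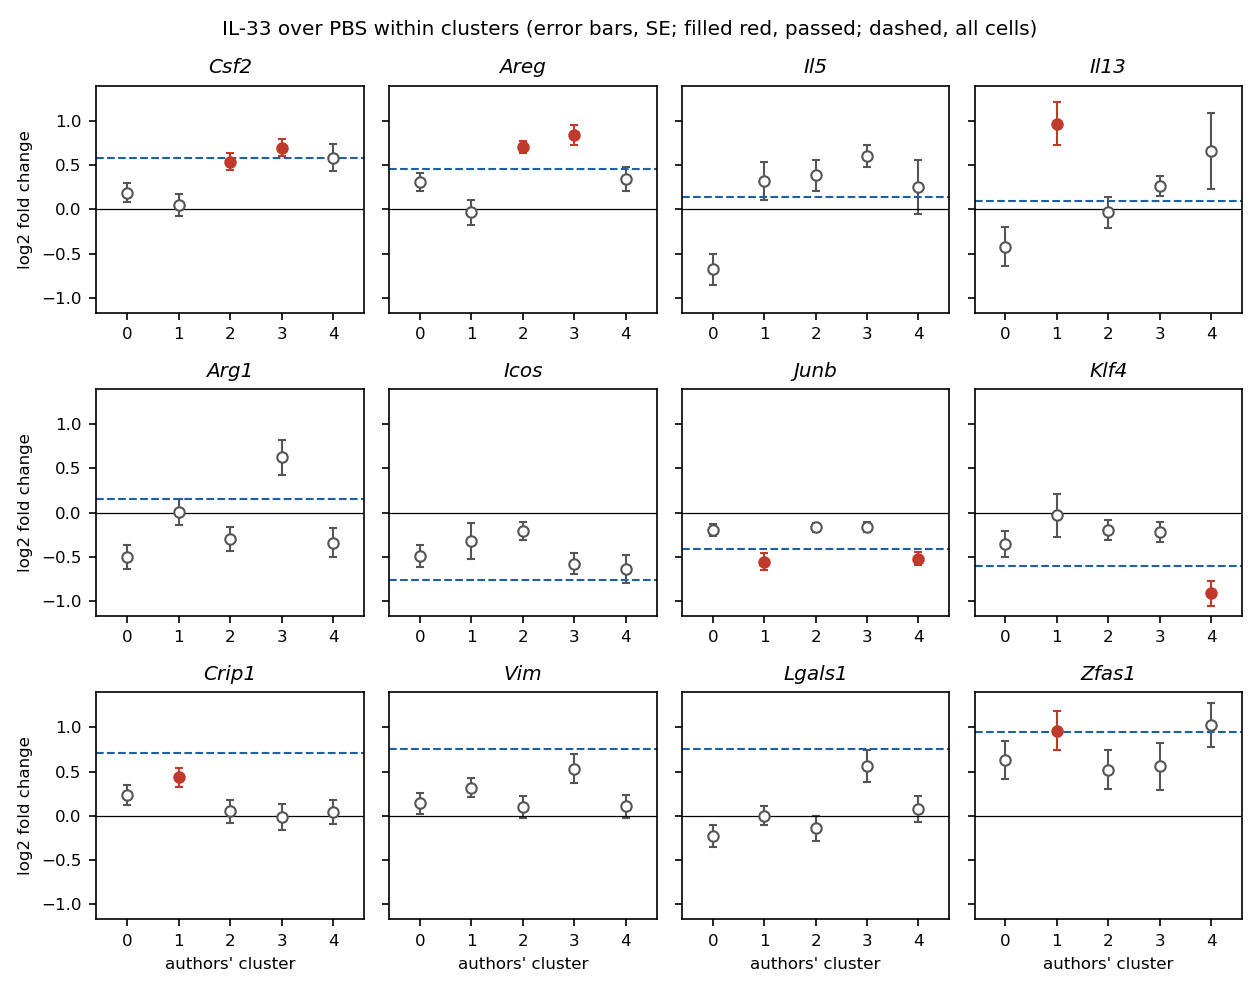
Log2 fold change of IL-33 over PBS (vertical, with SE bars) of 12 genes within each of the authors' clusters 0 to 4 (horizontal); filled red points passed within that cluster, and the dashed line is the value over all cells. Csf2 and Areg passed in clusters 2 and 3, Il5 lay on both sides of 0, and Crip1 and Lgals1 lay below their dashed lines in all 5.

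Marker genes of other cells were low or overlapped between the groups, with some exceptions. T cell markers summed to 927 and 1006 CPM with PBS and 1083, 962 and 1199 CPM with IL-33, led by Trbc2, with Cd8a and Trgc1 not in the table. Trbc2 (411 and 463 against 562, 496 and 642 CPM) and Cd3g (40.1 and 83.7 against 113, 93.7 and 103 CPM) were higher in every IL-33 hashtag without passing. Trbc1 was lower in each, also without passing (454 and 435 against 385, 347 and 433 CPM). NK cell and ILC1 genes, led by Ccl5, summed to 775 to 825 CPM and had a UMI in 93.9% to 97.0% of a hashtag's cells. These sums overlapped, but the members did not move alike. Ccl5 and Klrd1 were higher in every IL-33 hashtag without passing (fold changes 0.12 and 0.20). Gzma, Nkg7, Prf1, Klra8 and Eomes were lower in each without passing (-0.31, -0.21, -0.48, -0.49 and -0.34). Of the remaining members, Klrb1c and Klra7 had a positive fold change and the others a negative one. Of the macrophage and monocyte list, led by Ccr2 at a sum of 421 to 624 CPM, 8 of 14 genes such as Adgre1, Csf1r and Mrc1 were not in the table. Eosinophil and fibroblast lists summed to under 1 CPM in each hashtag. Neutrophil genes summed to 1.43 and 0 CPM against 4.64, 2.40 and 17.4 CPM, led by S100a9. A UMI of any of them was seen in 0.643% and 0% of cells against 1.08%, 1.01% and 0.396%. In IL-33 hashtag 5, the 76 UMIs of S100a8 lay in 0.066% of cells. Erythroid and platelet genes, led by Hba-a1, overlapped at 89.4 and 107 CPM against 66.9, 45.8 and 92.4 CPM. Within clusters, Hba-a1 passed as lower in clusters 0 and 1. Il17a overlapped at 31.5 and 1.79 CPM against 3.34, 2.23 and 16.3 CPM, and passed as lower in cluster 1. Epithelial genes summed to 145 and 128 CPM against 112, 115 and 112 CPM, led by Scgb1a1. Their part in the differences was not tested.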

How the data were processed

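Droplet 3′ single-cell RNA from 1 hashed pool was analysed; the bulk libraries were not used here. Per the submitters' processing notes, the tools were Cell Ranger 6.1.1 and Seurat 4.0.2 with build mm10, settings not given. The deposited matrix holds raw UMI counts of 15083 genes in 9076 cells, with no barcode shared. The percent of mitochondrial UMIs per cell was computed by the authors, and reached 7.50% at most. Hashtag, treatment and cluster came from the deposited cell table. No source used here says how doublets were handled, and none were called. Counts were summed per hashtag and tested with edgeR 4.0.16 (TMM, filterByExpr, quasi-likelihood, common biological variation 7.63%) in R 4.3.3, with DESeq2 1.42.0 and limma 3.58.1 as alternatives. Depth ran from 1397576 to 9268932 UMIs per hashtag, and the number of hashtags limits the precision. On simulated data of 10344 genes, 35.1% of 1.5-fold and 61.0% of 2-fold changes were recovered, with 5 false calls. The simulation was run once, with each gene drawn independently around a common profile. It therefore held no shift shared by many genes of a hashtag and gives no false calls for such a shift. Single values were compared by exact two-sided permutation. Coordinates are GENCODE M21 and promoter windows RefSeq, GRCm38.p6.

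Named were 22 fixed genes, up to 12 passing genes per direction with the largest fold change, at least 50 CPM in the higher group and no overlap (predicted, Rik, mitochondrial and ribosomal protein genes left out), and up to 5 passing members of each list. A gene that this rule names is not reported here. Other list members named in the text were picked after their values were seen. The members, the 35 gene lists and the tests were chosen with earlier results of these data known. Alternatives covered normalisation, filters, thinning of hashtag totals, depth per cell, cluster weights, all 8 hashtags and leaving out each hashtag; 3 were added after the data were seen (robust spread on 5 and on 8 hashtags, DESeq2 on 8).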

Additional observations from a re-analysis of the deposited data

Results flagged for a closer look

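In 5 of 94 named genes tested in at least 2 clusters (5.32%), every IL-33 hashtag lay above both PBS hashtags in 1 of the authors' clusters and below both in another. The same held for 15.3% of all 7717 genes tested in at least 2 clusters, and none of the values given here passed within its cluster (lowest adjusted p = 0.0816 by edgeR, for Il5 in cluster 3). The difference between clusters was not tested, and the clusters were made from the same cells. Il5 had a log2 fold change of IL-33 over PBS of 0.607 in cluster 3 and -0.673 in cluster 0. Arg1 stood at 0.623 in cluster 3, and at -0.505 in cluster 0, -0.300 in cluster 2 and -0.343 in cluster 4. For Kit, the stem cell factor receptor gene, the values were 0.531 in cluster 1 and -0.204 in cluster 3. Ikbkb, which encodes a kinase that activates NF-kB, stood at 0.233 in cluster 3 and -0.283 in cluster 0. The malate dehydrogenase gene Mdh2 stood at 0.208 in cluster 1, -0.103 in cluster 2 and -0.352 in cluster 4.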

How the results depend on the processing

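Against 74 genes passing (37 higher, 37 lower), DESeq2 passed 119 (38 and 81), no filter on low counts 322 (167 and 155), cells between the 10th and 90th percentile of UMIs 37 (6 and 31), cell means with limma 147 (130 and 17) and clusters weighted alike 41 (22 and 19). With all 8 hashtags in the fit edgeR passed 0 (1264 at an unadjusted p under 0.05), also with a robust spread (0; 1229), and DESeq2 45 (19 and 26). Library sizes without mitochondrial and ribosomal genes gave 80 (51 and 29). Leaving out 1 hashtag gave 5 to 124, with 3 to 73 higher and 2 to 61 lower; the lowest came without PBS hashtag 1. The cause was not tested, beyond the smaller number of hashtags or cells.

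List medians moved by more than the spread between hashtags as follows. Secreted factors ran from 0.0420 to 0.220 over all alternatives (0.0525 to 0.220 with a hashtag left out). Proliferation stood at 0.221 without a filter, 0.0576 at a mean of at least 10 CPM, 0.0100 in cells between the 10th and 90th percentile and 0.0375 to 0.229 with a hashtag left out. Immediate early genes stood at -0.180 with clusters weighted alike and -0.324 to -0.179 with a hashtag left out, and galectin and S100 genes at 0.0810 in mid-depth cells, 0.0727 with clusters weighted alike and 0.143 to 0.361 with a hashtag left out. Of 527 values for the other 31 lists, 86 moved, the largest shift being 0.25. Medians were not taken from the cell means, which are on another scale. The difference in UMIs per cell was 1259 as a mean over cells, against 817 as a median. For the mitochondrial percent it was -0.120 to -0.0273 with a hashtag left out, and -0.0736 for the mitochondrial share as a median over cells. The ribosomal share differed by -0.155 to 0.915 with a hashtag left out. No named gene's passing value turned in sign, but every passing gene was without overlap between the groups' hashtags, which makes a turn unlikely. No paired analysis was possible because the hashtag numbers differ between the groups. With 2 hashtags against 3, 35.1% of 1.5-fold changes were recovered on simulated data, and genes with few UMIs in hashtag 1 are the least certain.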

Other observations

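Of the passing genes that no list held, the following were picked after their values were seen. Malat1, a nuclear non-coding RNA gene, took 27283 and 27932 CPM with PBS and 21167, 24788 and 24100 CPM with IL-33, and was lower in each IL-33 hashtag (-0.28, adjusted p = 0.0204). Nrip1, which encodes a nuclear receptor corepressor, fell from 1338 and 1076 CPM to 910, 837 and 729 CPM (-0.58, adjusted p = 0.014). Neurl3 went from 898 and 967 CPM to 681, 680 and 589 CPM. Tiparp, a target gene of the aryl hydrocarbon receptor, fell from 254 and 195 CPM to 144, 166 and 148 CPM, and Eprs, a tRNA synthetase gene, from 760 and 616 CPM to 442, 452 and 540 CPM. Among genes that rose, Ctla2a, which encodes a cathepsin inhibitor, went from 1453 and 1518 CPM to 1982, 2092 and 1840 CPM, and Gas5, which like Zfas1 hosts small nucleolar RNAs, from 541 and 591 CPM to 791, 717 and 728 CPM.

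The lowest p of the whole fit belonged to Gm43305, a predicted gene, which fell from 706 and 496 CPM to 280, 308 and 228 CPM (-1.17, adjusted p = 0.00221), followed by Gm17745, another, which rose from 24.3 and 23.8 CPM to 64.2, 53.0 and 62.3 CPM (1.29, adjusted p = 0.00221). Gm47283 stood at 117 CPM in PBS hashtag 1, 256 CPM in PBS hashtag 2 and 92.7, 92.5 and 94.3 CPM with IL-33, so PBS hashtag 2 alone was far from the rest. Those 3 predicted genes and Csf2 were the genes of the 74 that still passed without PBS hashtag 1.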
